A study of Mus musculus with 14 samples.

Results

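The 39 genes described here encode fibrillar and other collagens, the proteoglycans and glycoproteins of the interstitial matrix, matrix proteases with their inhibitors, and proteins that mark fibroblasts. They were listed by name, not by any measured value, and were read in 4 populations of mouse prostate cells on 14 oligonucleotide arrays. Of the 39 genes, 38 had a probe set that could be named, and Fbn1, the gene of fibrillin, had none in the probe-to-gene table used. All 38 had a signal above 20 on at least 1 array and so stood among the 17137 genes tested. A gene with several probe sets was read from the 1 of highest mean log2 signal over the 14 arrays.

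UGE, the urogenital sinus epithelium of 16-day-old C57BL/6 embryos, was hybridized to 3 arrays. The adult populations came from male C57BL mice of 6 to 8 weeks by the labels (C57BL/6 of 6 weeks by the methods), whose prostate cells were sorted by the surface antigen Sca-1 into a fraction with high levels (Sca-1Hi, 3 arrays), a fraction with medium to low levels (Sca-1Lo, 4 arrays) and a fraction without the antigen (Sca-1Neg, 4 arrays). The study took these populations to be enriched in fetal stem cells, adult stem cells, transit-amplifying cells and mature cells, in that order. The labels name no transgene and no treatment. The adult cells came from the proximal region of the ducts, and Sca-1 was the only antigen by which the methods say the arrayed cells were sorted, so neither stromal, vascular nor blood cells were removed by a marker of their own. The methods describe a dissection and no sort for UGE. How many animals stood behind an array is not given in the sources used here, so that p-values measure the spread between these samples, which may be technical.

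In the prostate, as in other organs, fibroblasts lie in the stroma around the epithelial ducts and secrete collagen chains that assemble into fibrils outside the cell. Small leucine-rich proteoglycans such as decorin coat these fibrils, elastin and the fibulins form elastic fibres, lysyl oxidases cross-link both, and metalloproteases with their tissue inhibitors govern turnover. Fetal urogenital mesenchyme is known to instruct the overlying epithelium to form prostate buds. Many of these genes are also read in smooth muscle, pericytes and endothelium, and some, such as Gsn, Timp3 and Igf1, in cells of many other kinds. On arrays of whole fractions, fewer cells of a type and less RNA per cell cannot be told apart.

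Matrix gene signal was present in every population. Of the 38 genes, 36 had signals above 20 on all 11 adult arrays, the exceptions being Pi16 and Clec3b in Sca-1Neg, and 32 had signals above 20 on all 3 UGE arrays. Taken as defining markers, Col1a1, Col1a2, Col3a1, Dcn, Lum and Pdgfra were all above 20 on every array. UGE, labelled as an epithelium, had the basal keratin gene Krt5 at 6090.2 to 8559 and also the type III collagen gene Col3a1 at 1192 to 5982. Across the 38 genes, the population with the lowest mean of log2 signals was UGE for 30, Sca-1Neg for 7 and Sca-1Hi for 1, and the highest lay in Sca-1Lo for 19, in Sca-1Neg for 9, in Sca-1Hi for 6 and in UGE for 4. By the mean of the linear signals, which a single bright array can set, Sca-1Lo was the highest for 28 and UGE for 1.

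**Figure D1:**
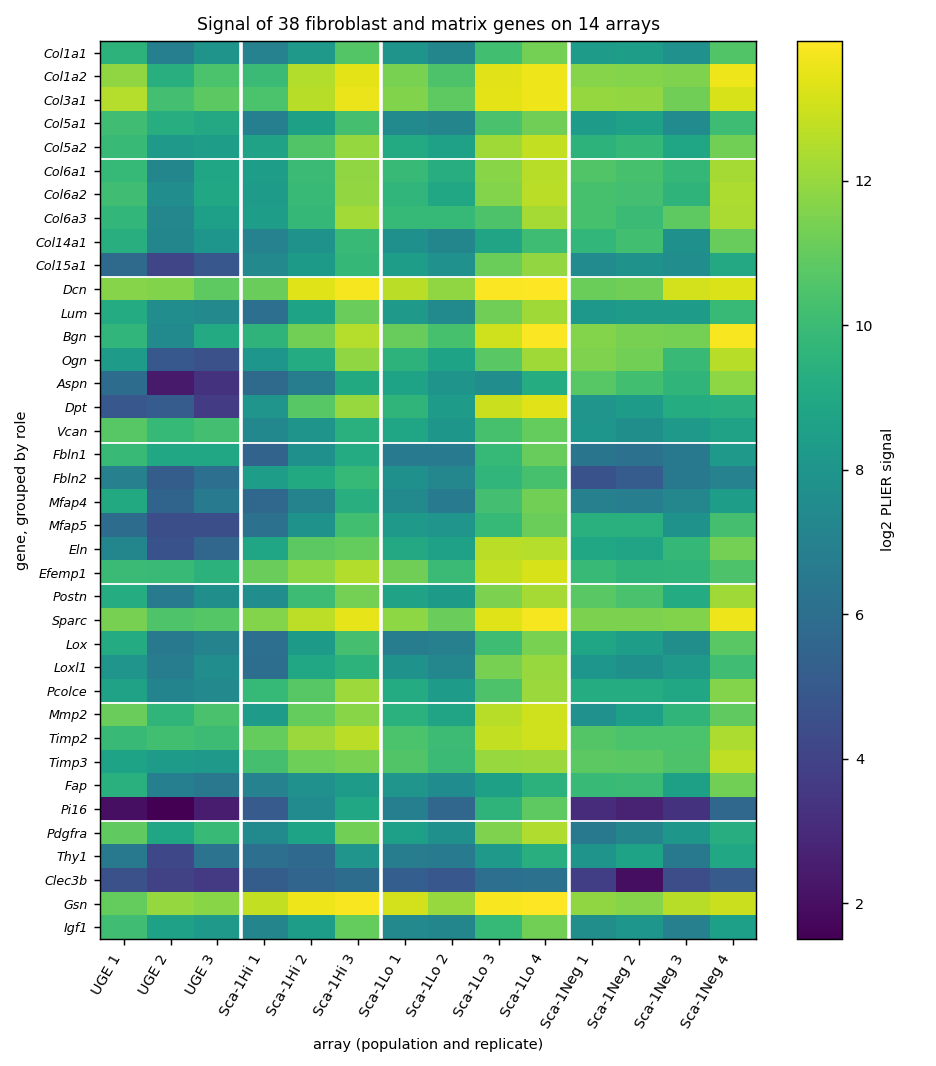
The log2 PLIER signal of each of the 38 genes (lines of the map, grouped by role) on each of the 14 arrays (columns, by population and replicate), with colour from low (dark) to high (yellow). Sca-1Hi replicate 3, Sca-1Lo replicates 3 and 4 and Sca-1Neg replicate 4 are the bright columns. In the proteoglycan block, Aspn and Dpt are dark on all 3 UGE arrays, while Vcan, the last line of that block, is brighter there.

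Arrays of 1 population differed widely in these genes. The ratio of the highest to the lowest array of a population had a median over the 38 genes of 3.45 in UGE, 10.2 in Sca-1Hi, 11.3 in Sca-1Lo and 5.36 in Sca-1Neg, where the median over all genes tested was 1.51, 1.52, 1.84 and 2.31. The high arrays were the same from gene to gene. Sca-1Hi replicate 3 was the highest of its population for 38 of the 38 genes, Sca-1Neg replicate 4 for 38, Sca-1Lo replicate 4 for 37 and UGE replicate 1 for 34. Sca-1Hi replicate 1 was the lowest of its population for 37 genes and Sca-1Lo replicate 2 for 35. The genes are therefore given array by array, and the standard errors of the differences between populations were often near 1 on the log2 scale.

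Array columns of a supplementary table of the study carry the numbers 1 to 5, which were joined to the arrays here by matching their values. What the numbers stand for is not stated. By these numbers, Sca-1Hi replicates 1, 2 and 3 are numbers 1, 3 and 4, while the 4 replicates of Sca-1Lo and of Sca-1Neg are numbers 1, 2, 4 and 5. Within Sca-1Lo, both arrays of numbers 4 and 5 lay above both arrays of numbers 1 and 2 for 37 of the 38 genes, against 39.8% of all genes tested, and the median log2 difference was 2.65, from 0.07 for Aspn to 4.16 for Dpt. Within Sca-1Hi, numbers 3 and 4 lay above number 1 for 37 genes, against 40.4% of all genes, with a median of 2.47. Within Sca-1Neg, where 43% of all genes lay above, 15 of the 38 did so, with a median of 0.83. No gene of the 38 lay entirely below in any of the 3 populations, where 29.8% of all genes did in Sca-1Lo, 36% in Sca-1Hi and 19.3% in Sca-1Neg. What separates the arrays of the low from those of the high numbers was not tested. The Gapdh probe sets of the 3′ and 5′ ends of the transcript, whose ratio is a measure of RNA integrity and labelling, moved with the numbers in Sca-1Lo and Sca-1Neg. They differed on the log2 scale by 2.54 and 1.98 at numbers 1 and 2 against 3.10 and 3.22 at numbers 4 and 5 in Sca-1Lo, by 1.66 and 1.84 against 2.75 and 2.69 in Sca-1Neg, and by 3.08 at number 1 against 3.07 and 3.48 in Sca-1Hi, with 1.83 to 2.38 in UGE. The same measure for Actb did not follow the numbers in this way, with 2.27 and 1.80 against 1.91 and 1.72 in Sca-1Lo, 1.17 and 1.48 against 2.11 and 1.21 in Sca-1Neg and 2.77 against 1.59 and 1.71 in Sca-1Hi. The part of RNA integrity or labelling in the matrix signals was not tested.

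Other cell types varied too. The summed signal of 14 smooth muscle and pericyte genes was 2536 to 5995 in UGE, 13389 to 41712 in Sca-1Hi, 18410 to 39758 in Sca-1Lo and 46125 to 143204 in Sca-1Neg. That of 13 endothelial genes was 384 to 1005 in UGE, 17423 to 30025 in Sca-1Hi, 8542 to 19110 in Sca-1Lo and 1897 to 5124 in Sca-1Neg, and Pecam1, the adhesion protein of vessel linings, was at 5.56 to 8.54 in UGE and at 3.02 to 13.6 in Sca-1Neg, under the signal of 20. For 15 leukocyte genes the ranges were 1859 to 2830, 1414 to 3389, 2782 to 10624 and 6735 to 57288 in the same order, and for 7 basal epithelial genes 21998 to 28941, 18510 to 29117, 9086 to 28812 and 1803 to 8215. The 38 fibroblast and matrix genes summed to 18675 to 39688 in UGE, 26908 to 139553 in Sca-1Hi, 25363 to 214526 in Sca-1Lo and 39113 to 136686 in Sca-1Neg, and such sums weigh the brightest probe sets most. Within Sca-1Lo the endothelial, basal epithelial and leukocyte sums moved with the study number as well. The smooth muscle sum did not, with 39145.9 and 24114.9 at numbers 1 and 2 against 18410.4 and 39758 at numbers 4 and 5. At numbers 1 and 2 against 4 and 5, the endothelial sum was 8931 and 8542 against 17942 and 19110.1, the basal epithelial sum 15347 and 9086 against 28812 and 28336.5, and the leukocyte sum 10624 and 6967 against 2799 and 2781.5. Sca-1Neg replicate 4, the highest array of its population in the matrix genes, also had the highest smooth muscle sum of all arrays. Its signal for Sox10, a gene of peripheral glia, was 12534, where the other Sca-1Neg arrays read 52.4 to 265. Sox10 made up most of the sum of 5 nerve and glia genes on that array, 14729.9. The sums on Sca-1Neg replicates 1 to 3 were 824.1, 2614 and 788.1. With Sox10 left out, replicate 4 was not above replicate 2. The part these cell types have in the matrix signals was not tested.

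**Figure D2:**
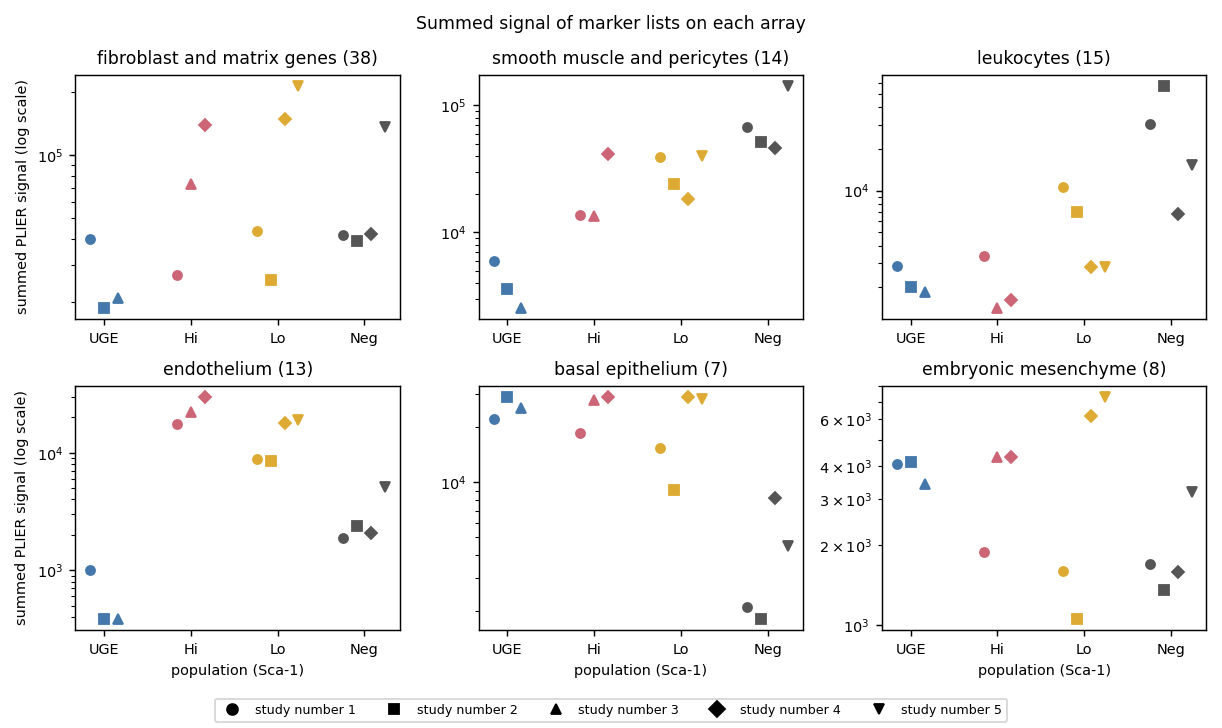
Summed PLIER signal (log axis) of the 38 genes and of 5 marker lists on each array, by population, with the shape of a point giving the study number. In the first panel Sca-1Neg arrays of numbers 1, 2 and 4 lie between 39113 and 41888 and number 5 at 136686, while the smooth muscle panel has all 4 Sca-1Neg arrays above every other array.

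UGE had less signal than the adult populations for much of the list. A gene was called when its limma test had an adjusted p under 0.05 and the difference exceeded the fold limit of the study's methods, which is 0.81 on the log2 scale. Against Sca-1Neg, 10 of the 38 genes were called lower in UGE, where 12.9% of all genes tested were, and 1 was called higher, where 16.3% were. Against Sca-1Hi, 12 were called lower and 1 higher, where 12% and 15.8% of all genes were, and against Sca-1Lo the 12 calls were all lower, where 12.2% of all genes were called lower and 13.4% higher. The median log2 difference over the 38 genes was -1.29, -1.51 and -1.83 in these comparisons, while the median over all genes tested was 0.07, -0.00021 and -0.04. All UGE arrays lay below all arrays of Sca-1Neg for 14 of the 38 genes (15.8% of all genes), of Sca-1Hi for 13 (23.9%) and of Sca-1Lo for 15 (19.2%), and above them for 2 (20.1%), 1 (28.7%) and 0 (22.2%). The 3 comparisons share the UGE arrays. Col15a1, Ogn, Aspn, Dpt, Mfap5, Eln and Timp3 were called lower in UGE in each of them. The UGE sums of smooth muscle genes lay below those of every adult array as given above, and 13, 10 and 11 of those 14 genes were called lower in UGE against Sca-1Neg, Sca-1Hi and Sca-1Lo. Their part in the matrix differences was not tested.

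These counts leaned on the UGE arrays. Without UGE replicate 3 the calls against Sca-1Neg fell from 11 to 5 (Bgn, Timp3, Ogn, Aspn and Mfap5), and without UGE replicate 2 to 6. Against Sca-1Hi the 13 calls became 5 without UGE replicate 2, 7 without UGE replicate 3, 7 without Sca-1Hi replicate 2 and 5 without Sca-1Hi replicate 3, and against Sca-1Lo the 12 became 7 without UGE replicate 3. Of the 39 calls of a gene in a comparison, over all 6 comparisons, 15 held whichever array of the 2 populations compared was left out, the 3 calls of Timp3 among them. With the adult arrays of numbers 1 and 2 alone, 17 genes were called against Sca-1Neg, and with those of numbers 3 to 5 alone 25 were called against Sca-1Lo. The methods' t-test, run here with Benjamini-Hochberg adjustment over all 41031 probe sets, called 5, 2 and 5 genes in the 3 comparisons. The study describes that test after narrowing the transcripts by variability and further tests, and only against Sca-1Neg. These counts are therefore not those of the study's own procedure.

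**Figure D3:**
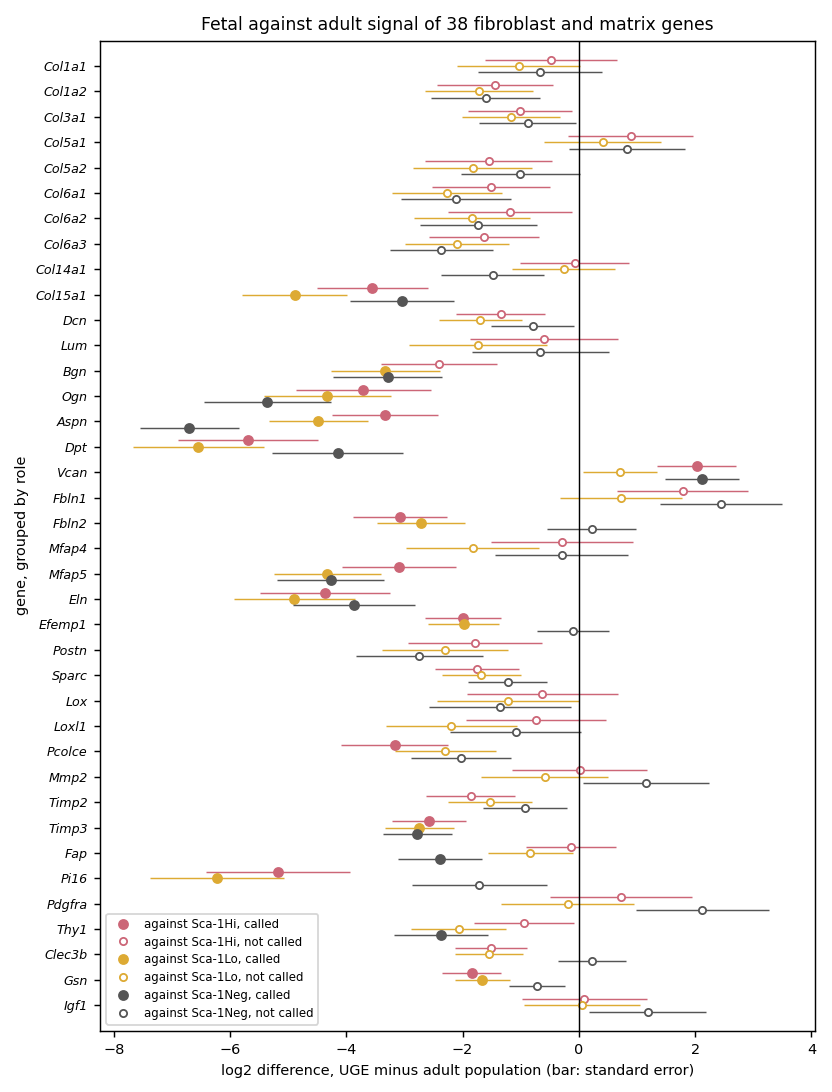
The log2 difference of UGE from each adult population (horizontal axis, with its limma standard error as a bar) for the 38 genes, grouped by role. Filled points were called, and most lie left of 0, from -6.70 for Aspn against Sca-1Neg, while Vcan is the only gene called to the right of 0.

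Fibrillar collagens, which form the load-bearing fibrils, made up 5 of the genes, and none was called in any of the 6 comparisons of populations by limma, where none had an unadjusted p under 0.05 either. Col3a1 had signals of 5982, 1192 and 1781 in UGE, 1373, 6268 and 12139 in Sca-1Hi, 3017, 1831, 11043 and 12451 in Sca-1Lo and 3990.2, 3828, 2407 and 9207 in Sca-1Neg. UGE replicate 1 lay above 6 of the 11 adult arrays, and all populations overlapped. The log2 difference of UGE was -0.88 from Sca-1Neg (SE 0.84, adjusted p = 0.468, limma), so a difference of this size could not be told from the spread between arrays. Col1a1, a chain of type I collagen, ran from 118 to 744 in UGE and from 128 to 2567 in the adult arrays, and Col1a2, its partner chain, from 629 to 3713 and from 994 to 12722. Col5a1, a chain of the type V collagen that nucleates fibrils, had a log2 difference of UGE of 0.82 from Sca-1Neg, 0.89 from Sca-1Hi and 0.41 from Sca-1Lo, and none of these passed the test (adjusted p of 0.577, 0.586 and 0.812, limma). Col5a2, which encodes another chain of type V collagen, differed by -1.01, -1.55 and -1.82.

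Among the 5 other collagens, Col15a1, which encodes a collagen of the zone between basement membranes and stroma, was called lower in UGE in every comparison. It had signals of 56.0, 17.2 and 29.5 in UGE, 165, 315 and 881 in Sca-1Hi, 341, 223, 2257 and 3909 in Sca-1Lo and 179, 228, 196 and 511 in Sca-1Neg. All 3 UGE arrays lay below all 11 adult arrays. The log2 difference was -3.05 from Sca-1Neg (SE 0.90, adjusted p = 0.022, limma), -3.55 from Sca-1Hi (adjusted p = 0.0146) and -4.89 from Sca-1Lo (adjusted p = 0.00144). The call against Sca-1Lo held whichever array was left out, that against Sca-1Neg was lost without UGE replicate 2, UGE replicate 3 or Sca-1Neg replicate 4 (adjusted p of 0.0517 to 0.0974), and that against Sca-1Hi without UGE replicate 2 or Sca-1Hi replicate 3 (0.0596 to 0.0666). Among the adult populations Sca-1Lo had the highest mean, but its 4 arrays spread from 223 to 3909 and no adult comparison passed the test. Col6a1, Col6a2 and Col6a3, the chains of beaded-filament type VI collagen, had log2 differences of UGE from Sca-1Neg of -2.11, -1.73 and -2.36 with adjusted p of 0.115, 0.22 and 0.0639 (limma), and for Col6a3 the 3 UGE arrays, at 155 to 860, lay below the 4 Sca-1Neg arrays, at 999 to 5288. Col14a1, which binds the surface of fibrils, was at 147 to 636 in UGE and at 128 to 2122 in the adult arrays.

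The proteoglycans and collagen-binding proteins held the largest differences. Aspn encodes asporin, a small leucine-rich protein that binds collagen, and had signals of 59.5, 5.32 and 9.97 in UGE, 56.6, 109 and 529 in Sca-1Hi, 425, 242, 192 and 585 in Sca-1Lo and 1649, 1138, 793 and 3656 in Sca-1Neg. The signals fell into an order with no overlap between Sca-1Neg and any other population, and only UGE replicate 1 reached the Sca-1Hi range. UGE was lower than Sca-1Neg by a log2 difference of -6.70 (SE 0.85, adjusted p = 7.72e-05, limma), and since 2 UGE arrays were under 20 the ratio with signals set to at least 20 was 53.1-fold. Aspn was also called lower in Sca-1Hi than in Sca-1Neg, by -3.36 (adjusted p = 0.0218), and lower in UGE than in Sca-1Hi and Sca-1Lo, by -3.34 and -4.48. The calls of UGE against Sca-1Neg and Sca-1Lo held whichever array was left out. That against Sca-1Hi was lost without UGE replicate 2, UGE replicate 3 or Sca-1Hi replicate 3 (adjusted p of 0.0622 to 0.0744), and that of Sca-1Hi against Sca-1Neg without Sca-1Hi replicate 1 or 2 or Sca-1Neg replicate 1 or 4 (0.0511 to 0.104). The other probe set of the gene gave -5.31 for UGE and -3.66 for Sca-1Hi against Sca-1Neg, -2.85 for UGE against Sca-1Lo, and -1.64 for UGE against Sca-1Hi, which was the only 1 of the 4 it did not call.

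Ogn, the gene of osteoglycin, a related protein of the stroma, had signals of 336, 30.6 and 24.4 in UGE, 265, 565 and 3744 in Sca-1Hi, 752, 425, 1722 and 4626 in Sca-1Lo and 2927, 2539, 954 and 6309 in Sca-1Neg. The highest population was again Sca-1Neg, and UGE replicates 2 and 3 lay far below all adult arrays. UGE was lower than Sca-1Neg by a log2 difference of -5.36 (SE 1.09, adjusted p = 0.0026, limma) and lower than Sca-1Lo by -4.33 (adjusted p = 0.011). From Sca-1Hi it differed by -3.71 (adjusted p = 0.0306), with UGE replicate 1 inside the Sca-1Hi range, and the other probe set of Ogn, at -3.01, was not called there. The first of these calls held whichever array was left out, the second was lost without UGE replicate 2 or 3 (adjusted p of 0.0579 to 0.0658), and the last without UGE replicate 2 or 3 or Sca-1Hi replicate 2 or 3 (0.0594 to 0.136).

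Dpt encodes dermatopontin, which binds decorin and aids fibril assembly, and had signals of 29.4, 34.7 and 12.8 in UGE, 251, 1691 and 4209 in Sca-1Hi, 810.3, 332, 7982 and 10745 in Sca-1Lo and 255, 318, 580.5 and 639 in Sca-1Neg. The UGE arrays lay at or near the signal of 20, below all 11 adult arrays, and the high adult arrays were those of Sca-1Hi and Sca-1Lo. The log2 difference of UGE was -4.15 from Sca-1Neg (SE 1.13, adjusted p = 0.015, limma), -5.69 from Sca-1Hi (adjusted p = 0.0036) and -6.54 from Sca-1Lo (adjusted p = 0.000946). With signals set to at least 20, these were 15.3-fold, 44.4-fold and 80.3-fold. The call against Sca-1Neg was lost without UGE replicate 3 (adjusted p = 0.0697), and the other two held whichever array was left out.

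Bgn, which encodes the proteoglycan biglycan, was lower in UGE than in Sca-1Neg by a log2 difference of -3.29 (adjusted p = 0.0184, limma) and than in Sca-1Lo by -3.33 (adjusted p = 0.0198), with 172 to 829 in UGE against 2567 to 14218 and 1289 to 15096. The call against Sca-1Neg was lost without UGE replicate 2 (adjusted p = 0.0979) and that against Sca-1Lo without UGE replicate 2, UGE replicate 3 or Sca-1Lo replicate 4 (0.0505 to 0.104). Vcan went the other way. It encodes versican, a large proteoglycan of embryonic and loose stroma, and had signals of 1689.6, 904 and 1192 in UGE, 159, 245 and 685 in Sca-1Hi, 442, 269, 1284 and 2074 in Sca-1Lo and 259.7, 207, 287 and 402 in Sca-1Neg. Every UGE array lay above every Sca-1Hi and Sca-1Neg array, while Sca-1Lo overlapped with UGE. UGE was higher than Sca-1Neg by 2.12 (SE 0.64, adjusted p = 0.0242, limma) and than Sca-1Hi by 2.03 (adjusted p = 0.041). The call against Sca-1Neg was lost without UGE replicate 1 or 3 or Sca-1Neg replicate 1 or 2 (adjusted p of 0.0533 to 0.0769) and that against Sca-1Hi without any 1 of the UGE arrays or Sca-1Hi replicate 1 or 2 (0.0608 to 0.148), and the latter was not made when the gene was read as the mean of its probe sets. The probe sets of Vcan disagreed. Of the 6 others past the signal filter, 5 were not called against Sca-1Neg, with a range over all 7 of -0.93 to 2.49, and none gave the call against Sca-1Hi, where the range was -1.50 to 2.03 and 1 was called in the opposite direction. Dcn and Lum, the decorin and lumican genes, which lie next to each other in the genome, were not called in any comparison, with Dcn at 1874 to 3324 in UGE and 2198 to 15573 in the adult arrays.

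Elastic fibre genes with a probe set numbered 6. Eln, the gene of elastin itself, had signals of 150.3, 24.9 and 49.1 in UGE, 457, 1771 and 2021 in Sca-1Hi, 519.8, 399, 6534 and 5992 in Sca-1Lo and 476, 438, 881 and 2606 in Sca-1Neg. All UGE arrays lay below all adult arrays. The log2 difference of UGE was -3.87 from Sca-1Neg (SE 1.04, adjusted p = 0.0142, limma), -4.37 from Sca-1Hi (adjusted p = 0.0108) and -4.89 from Sca-1Lo (adjusted p = 0.00409), but the dimmer probe set of Eln gave only -0.85, -1.05 and -1.32 and was not called against Sca-1Neg or Sca-1Hi. The call against Sca-1Neg was lost without UGE replicate 2 or 3 (adjusted p of 0.0519 to 0.0744). Mfap5, whose product decorates microfibrils, had signals of 59.6, 22.8 and 22.2 in UGE, 71.8, 228 and 1142 in Sca-1Hi, 292, 252, 923 and 2251 in Sca-1Lo and 683, 669.5, 226 and 1254 in Sca-1Neg. UGE was below each adult array, and Mfap5 was called lower in UGE by -4.27 from Sca-1Neg (adjusted p = 0.00385), -3.09 from Sca-1Hi (adjusted p = 0.0329) and -4.33 from Sca-1Lo (adjusted p = 0.00402). The call against Sca-1Hi was lost without UGE replicate 2 or 3 or Sca-1Hi replicate 2 or 3 (adjusted p of 0.0732 to 0.147) and the others held whichever array was left out. Its other probe set made the same 3 calls.

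Fbln2 and Efemp1, which encode fibulin-2 and fibulin-3, followed another order. Fbln2 had signals of 119, 35.6 and 66.7 in UGE, 346, 539 and 916 in Sca-1Hi, 215, 156, 819 and 1276 in Sca-1Lo and 24.5, 35.1, 92.6 and 128 in Sca-1Neg. All 7 arrays of Sca-1Hi and Sca-1Lo lay above all 7 arrays of UGE and Sca-1Neg. Sca-1Hi was higher than Sca-1Neg by a log2 difference of 3.30 (SE 0.76, adjusted p = 0.0141, limma), and UGE was lower than Sca-1Hi by -3.08 (adjusted p = 0.013) and than Sca-1Lo by -2.72 (adjusted p = 0.0195). The second probe set of Fbln2 was called in none of the 3, with 0.85, -0.75 and -1.13. Without Sca-1Hi replicate 2 or 3 the first call was lost (adjusted p of 0.0604 and 0.0634), without UGE replicate 2 or Sca-1Hi replicate 3 the second (0.0541 to 0.0581), and without UGE replicate 2 or 3 or Sca-1Lo replicate 4 the third (0.0518 to 0.0967). Efemp1 had signals of 1025, 972 and 722 in UGE, 2178, 3572 and 5860.4 in Sca-1Hi, 2386, 1007, 7104 and 9176 in Sca-1Lo and 989.7, 765, 807 and 1396 in Sca-1Neg. It was lower in UGE than in Sca-1Hi by -1.9955 (adjusted p = 0.0383) and than in Sca-1Lo by -1.98 (adjusted p = 0.0325), and its UGE and Sca-1Neg levels overlapped. The call against Sca-1Hi was lost without any 1 of the UGE arrays or Sca-1Hi replicate 2 or 3 (adjusted p of 0.0639 to 0.137), and that against Sca-1Lo without any 1 of the UGE arrays or Sca-1Lo replicate 3 or 4 (0.0567 to 0.117). Fbln1, the fibulin-1 gene, was at 485 to 936 in UGE, above all Sca-1Neg arrays at 74.1 to 293, yet the difference of 2.44 missed the threshold (adjusted p = 0.103, limma). Mfap4, a further microfibril gene, was not called in any comparison.

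**Figure D4:**
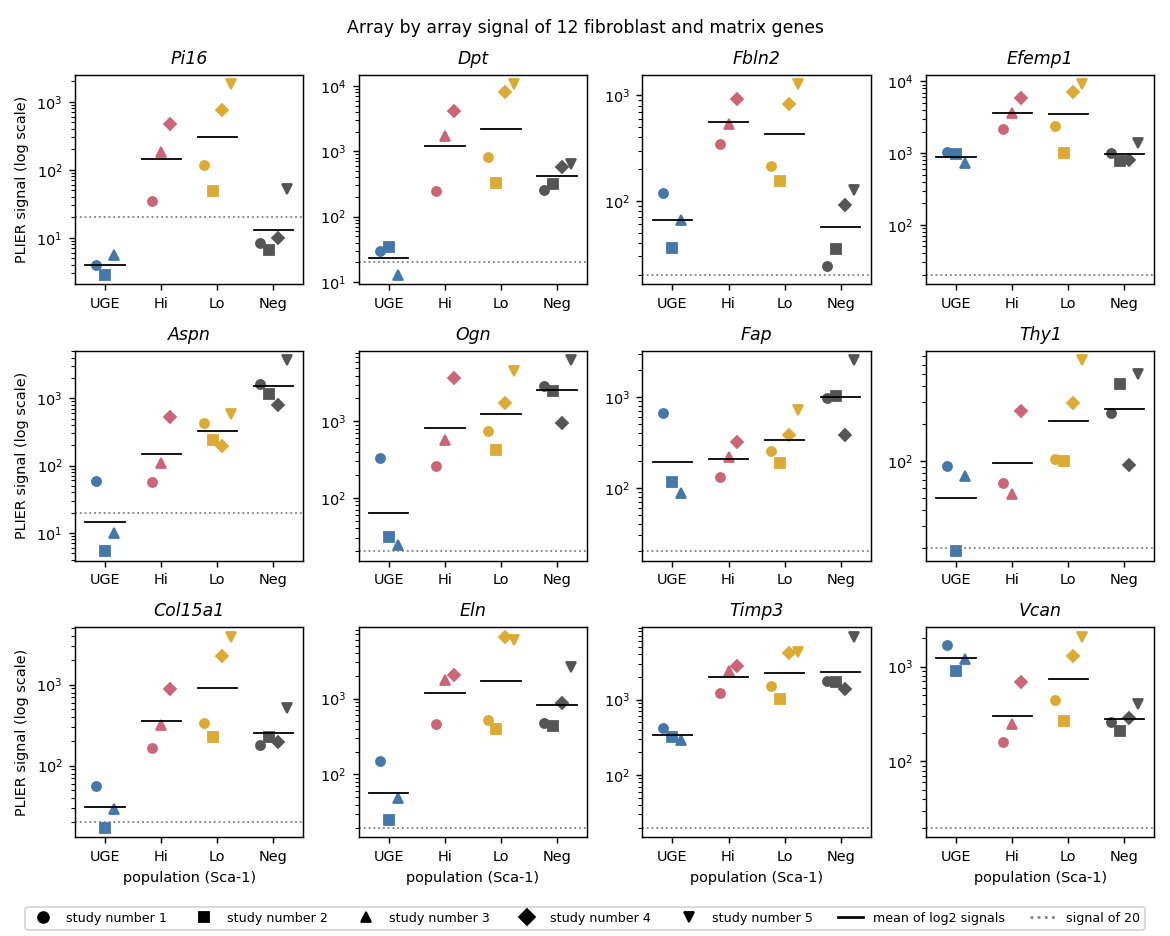
PLIER signal (log axis) of 12 genes on each array, by population, with the shape of a point giving the study number, a line at the mean of the log2 signals and a dotted line at a signal of 20. Pi16, Dpt, Fbln2 and Efemp1 are highest in Sca-1Hi or Sca-1Lo arrays, and Aspn, Ogn and Fap in Sca-1Neg arrays, while Vcan lies at 904 to 1690 in UGE and reaches 2074 in Sca-1Lo.

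Of the 5 matricellular and cross-linking genes, Pcolce was the only 1 called. It encodes the enhancer of procollagen cleavage, and had signals of 410.2, 137 and 164 in UGE, 923, 1647 and 4399 in Sca-1Hi, 577, 316, 1434 and 4315 in Sca-1Lo and 591, 586, 493 and 3124 in Sca-1Neg. The 3 UGE arrays lay below the 3 Sca-1Hi arrays, by a log2 difference of -3.17 (SE 0.92, adjusted p = 0.0218, limma), while Sca-1Lo replicate 2 fell inside the UGE range. That call did not survive the removal of UGE replicate 2 (adjusted p = 0.0771), UGE replicate 3 (0.0733), Sca-1Hi replicate 2 (0.0541) or Sca-1Hi replicate 3 (0.0931). Postn, which encodes the stromal adhesion protein periostin, was at 103 to 597 in UGE and 567 to 4533 in Sca-1Neg and differed by -2.74 (adjusted p = 0.0767). Sparc, a collagen-binding glycoprotein gene, and Lox and Loxl1, the lysyl oxidase genes, were called in no comparison, and Sparc was at 1444 to 2651 in UGE against 2220 to 13922 in the adult arrays. Of its other probe sets, 1 was called higher in Sca-1Hi than in Sca-1Neg and 1 lower in UGE than in Sca-1Hi.

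Proteases and inhibitors made up 5 genes. Timp3, an inhibitor of metalloproteases that stays bound to matrix, had signals of 423, 319 and 286 in UGE, 1237, 2374 and 2766 in Sca-1Hi, 1491, 1004, 4115 and 4250.2 in Sca-1Lo and 1780.4, 1702, 1398 and 6820.4 in Sca-1Neg. The UGE arrays agreed closely and lay below all 11 adult arrays, by log2 differences of -2.78 from Sca-1Neg (SE 0.59, adjusted p = 0.00362, limma), -2.57 from Sca-1Hi (adjusted p = 0.00894) and -2.74 from Sca-1Lo (adjusted p = 0.00449). The adult populations overlapped, and all 4 probe sets of Timp3 gave the call in each comparison, as did every fit with an array left out. Timp2, a related inhibitor, was at 963 to 1171 in UGE, below all Sca-1Hi arrays at 2063 to 6373, and differed from them by -1.86 (adjusted p = 0.0919, limma). Of its other probe sets, 1 was called lower in UGE than in Sca-1Hi and 2 lower than in Sca-1Lo. Mmp2, the gelatinase that Timp2 inhibits, was at 791 to 2184 in UGE, inside the adult range of 224 to 8311.

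Fap, a surface protease known from activated fibroblasts, had signals of 669, 117 and 88.6 in UGE, 130.4, 219 and 323 in Sca-1Hi, 255, 190.3, 379 and 719 in Sca-1Lo and 991, 1025, 379.6 and 2546 in Sca-1Neg. Its highest arrays were those of Sca-1Neg, and UGE replicates 2 and 3 lay below all adult arrays. UGE was lower than Sca-1Neg by a log2 difference of -2.39 (SE 0.73, adjusted p = 0.0264, limma), with UGE replicate 1 inside the Sca-1Neg range. The adjusted p rose to 0.115 without UGE replicate 2, 0.134 without UGE replicate 3, 0.0533 without Sca-1Neg replicate 1, 0.0539 without Sca-1Neg replicate 2 and 0.064 without Sca-1Neg replicate 4. Sca-1Hi was below all Sca-1Neg arrays, by -2.25 (adjusted p = 0.0601).

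Pi16 encodes a secreted peptidase inhibitor that marks a fibroblast population found across organs, and had signals of 4.01, 2.83 and 5.62 in UGE, 34.2, 184 and 479 in Sca-1Hi, 117, 48.9, 763 and 1823 in Sca-1Lo and 8.37, 6.62, 10.0 and 52.9 in Sca-1Neg. All 3 UGE arrays and 3 of the 4 Sca-1Neg arrays were under 20, while all 7 Sca-1Hi and Sca-1Lo arrays were above it. UGE was lower than Sca-1Hi by a log2 difference of -5.18 (adjusted p = 0.00744, limma), at least 7.22-fold, and lower than Sca-1Lo by -6.22 (SE 1.16, adjusted p = 0.00163), at least 14.9-fold. A bound is given because UGE was not measured above 20, and both calls held whichever array was left out. The second probe set of Pi16 was called in neither comparison, with -2.50 and -2.03.

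Surface and secreted fibroblast markers were the last 5 genes. Thy1, a surface glycoprotein of fibroblasts and of other cells, had signals of 91.4, 18.7 and 75.1 in UGE, 66.9, 54.0 and 251 in Sca-1Hi, 104, 101, 295 and 648 in Sca-1Lo and 243, 419, 92.0 and 499 in Sca-1Neg. UGE was below Sca-1Neg by a log2 difference of -2.37 (SE 0.81, adjusted p = 0.0433, limma), with UGE replicate 1 and Sca-1Neg replicate 3 nearly touching. The adjusted p was 0.209 without UGE replicate 2, 0.0699 without UGE replicate 3, 0.076, 0.104 and 0.0935 without Sca-1Neg replicates 1, 2 and 4. Gsn, the gene of the actin-severing protein gelsolin, had signals of 2045, 3996 and 3405 in UGE, 7044, 12787 and 14298 in Sca-1Hi, 8836, 4160.3, 14499 and 15692 in Sca-1Lo and 3721, 3325, 6305 and 7984 in Sca-1Neg. It was lower in UGE than in every Sca-1Hi and Sca-1Lo array, by -1.84 (adjusted p = 0.0161) and -1.66 (adjusted p = 0.0219), while of its 4 other probe sets 1 was not called against Sca-1Hi and 2 were not called against Sca-1Lo. The call against Sca-1Lo was lost without UGE replicate 1 or 3 or Sca-1Lo replicate 3 or 4 (adjusted p of 0.0556 to 0.0826), and that against Sca-1Hi without UGE replicate 1 (adjusted p = 0.0612), Sca-1Hi replicate 2 (0.0603) or Sca-1Hi replicate 3 (0.0627). Pdgfra, the receptor by which fibroblasts answer platelet-derived growth factor, was at 448 to 1919 in UGE and 92.7 to 599 in Sca-1Neg, a difference of 2.12 that missed the threshold (adjusted p = 0.185). Igf1, a growth factor secreted by stroma, was at 291 to 1111 in UGE and 123 to 2471 in the adult arrays.

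The study set the Sca-1Hi and Sca-1Lo fractions against Sca-1Neg. Against Sca-1Neg, 1 of the 38 genes was called higher in Sca-1Hi (Fbln2), where 6.12% of all genes tested were, and 1 lower (Aspn), where 5.19% were. In Sca-1Lo the only call was Pi16, which was higher, where 1.69% of all genes were called higher and 0.829% lower. Between Sca-1Hi and Sca-1Lo none of the 38 was called by limma, none had an unadjusted p under 0.05, and the methods' t-test called none, where 0.0992% of all genes were called in either direction. By limma, 7 of the 38 had an unadjusted p under 0.05 for Sca-1Hi and 10 for Sca-1Lo against Sca-1Neg. Of the 41031 probe sets tested, 11713 and 5601 had such a p. The comparisons with Sca-1Neg share its 4 arrays.

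Genes that the sort separated without overlap were few as well. All 3 Sca-1Hi arrays lay above all Sca-1Neg arrays for Fbln2, Efemp1 and Clec3b, against 12.3% of all genes, and below them for Aspn and Fap, against 8.78%. Of these, Efemp1 differed by 1.89 (adjusted p = 0.0606, limma) and Clec3b, the gene of the plasminogen-binding protein tetranectin, by 1.73 (adjusted p = 0.0691), at least 2.01-fold. Sca-1Lo lay above Sca-1Neg for Fbln2 alone, against 4.22% of all genes, and below it for Aspn alone, against 2.49%. For Fbln2 the log2 difference in Sca-1Lo was 2.94 (adjusted p = 0.0504), and for Aspn -2.22 (adjusted p = 0.2), so neither was called. Clec3b had signals of 23.9, 15.3 and 12.2 in UGE, 36.4, 47.9 and 58.8 in Sca-1Hi, 37.6, 29.7, 66.5 and 70.9 in Sca-1Lo and 13.98, 3.90, 21.9 and 33.4 in Sca-1Neg. All arrays lay between 3.90 and 70.9, with UGE and Sca-1Neg mostly below Sca-1Hi and Sca-1Lo.

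Pi16 was higher in Sca-1Lo than in Sca-1Neg by a log2 difference of 4.51 (SE 1.07, adjusted p = 0.0494, limma), at least 11.7-fold. Sca-1Lo replicate 2, at 48.9, lay under Sca-1Neg replicate 4, at 52.9, so the populations overlapped. The second probe set differed by -0.70 and gave no call. In Sca-1Hi the difference was 3.46 (adjusted p = 0.0669), at least 5.66-fold. The call was lost without Sca-1Lo replicate 1, 3 or 4 and without Sca-1Neg replicate 1, 2 or 3 (adjusted p of 0.0519 to 0.17), and no other gene was then called except Fbln2 without Sca-1Neg replicate 3. In turn 3 genes (Fbln2, Efemp1 and Pi16) were called without Sca-1Lo replicate 2 and 2 (Fbln2 and Pi16) without Sca-1Neg replicate 4. For Sca-1Hi, no gene was called without Sca-1Hi replicate 2, Aspn alone without Sca-1Hi replicate 3 and Fbln2 alone without Sca-1Neg replicate 1. Pi16 joined Fbln2 without Sca-1Hi replicate 1, where Aspn was lost, and Pi16 and Clec3b joined it without Sca-1Neg replicate 4.

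Arrays of the same study number were compared because deviations from the population means correlated positively between Sca-1Lo and Sca-1Neg arrays of 1 number. Over the probe sets tested, the correlations at numbers 1, 2, 4 and 5 were 0.18, 0.41, 0.12 and 0.56. They were weak at numbers 1 and 4. Sca-1Lo and Sca-1Neg arrays of unlike numbers were not correlated, so pairing by number cannot be told from a wider split of the numbers. At number 4 the 38 genes summed to 149359.5 in Sca-1Lo and 41888.4 in Sca-1Neg. That Sca-1Neg array was the lowest of its population for 20 of the 38 genes. Fitted with the study number as a block, the Sca-1Lo comparison called 4 genes in place of 1, all higher in Sca-1Lo. These were Fbln2 (2.94, SE 0.36, adjusted p = 0.00473), Pi16 (4.51, adjusted p = 0.00474), Clec3b (1.76, SE 0.32, adjusted p = 0.0188) and Efemp1 (1.88, SE 0.42, adjusted p = 0.0395). Pi16 and Clec3b had signals under 20 on some Sca-1Neg arrays, which the block fit and the differences by number took as measured. Number by number, the log2 difference of Sca-1Lo from Sca-1Neg was 3.14, 2.15, 3.14 and 3.32 for Fbln2 and 3.80, 2.88, 6.25 and 5.11 for Pi16. For Aspn it was -1.96, -2.23, -2.04 and -2.65, the same sign and nearly the same size at each number, whereas for Dpt it was 1.67, 0.06, 3.78 and 4.07.

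Over the whole list the difference moved with the number. The median log2 difference of Sca-1Lo from Sca-1Neg over the 38 genes was -0.22 at number 1, -0.81 at number 2, 2.27 at number 4 and 0.81 at number 5, with 16, 11, 35 and 32 of the 38 higher in Sca-1Lo, where 63.8%, 59.1%, 51.4% and 50.9% of all genes were. The same held for Sca-1Hi, with a median of -1.07 at number 1 and 2.18 at number 4 and 10 and 36 of the 38 higher, where 56.3% and 51.9% of all genes were. Thus Col1a1 was lower in Sca-1Lo at numbers 1 and 2, by -0.39 and -1.26, and higher at numbers 4 and 5, by 2.37 and 0.77. A limma interaction term for the change of the difference between numbers 1 and 2 and numbers 3 to 5 passed the threshold for none of the 38 genes in either population, against 0.0219% of all probe sets for Sca-1Lo and 0.00975% for Sca-1Hi. It was positive for 35 of the 38 in both, and the lowest adjusted p were 0.193 (Dpt, 3.06, SE 0.72) and 0.497. Of the 38, 16 and 3 had an unadjusted p under 0.05 (limma), and the share of all probe sets that did was not computed.

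Some genes kept 1 sign across the 4 numbers. Of the 38, 11 were higher in Sca-1Lo at each number, against 17.7% of all genes, and 3 were lower (Col6a3, Aspn and Fap), against 8.55%, although Fap was at -0.0015 at number 4. The 11 were Dcn, Dpt, Vcan, Fbln1, Fbln2, Efemp1, Mmp2, Pi16, Pdgfra, Clec3b and Gsn. Only Fbln2, Pi16 and Clec3b exceeded the fold limit of 0.81 on the log2 scale each time, against 2.45% of all genes, and only Aspn did so in the other direction, against 1.41%. These differences took signals under 20 as measured. Were signals set to at least 20, Clec3b would not exceed the limit at number 2, where its difference was 2.93. In Sca-1Hi, at numbers 1 and 4, 10 genes were higher at both, against 34% of all genes, and Fbln2, Efemp1, Pi16, Pdgfra, Clec3b and Gsn exceeded the limit at both, against 6.66%. Here Pi16, with a difference of 2.03 at number 1, would not exceed the limit there with signals set to at least 20. Between Sca-1Hi and Sca-1Lo, 22 of the 38 were lower in Sca-1Hi at both numbers, against 38.2% of all genes, and Col15a1, Dpt, Vcan, Mfap4, Loxl1 and Mmp2 were lower by more than the limit, against 2.36%.

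**Figure D5:**
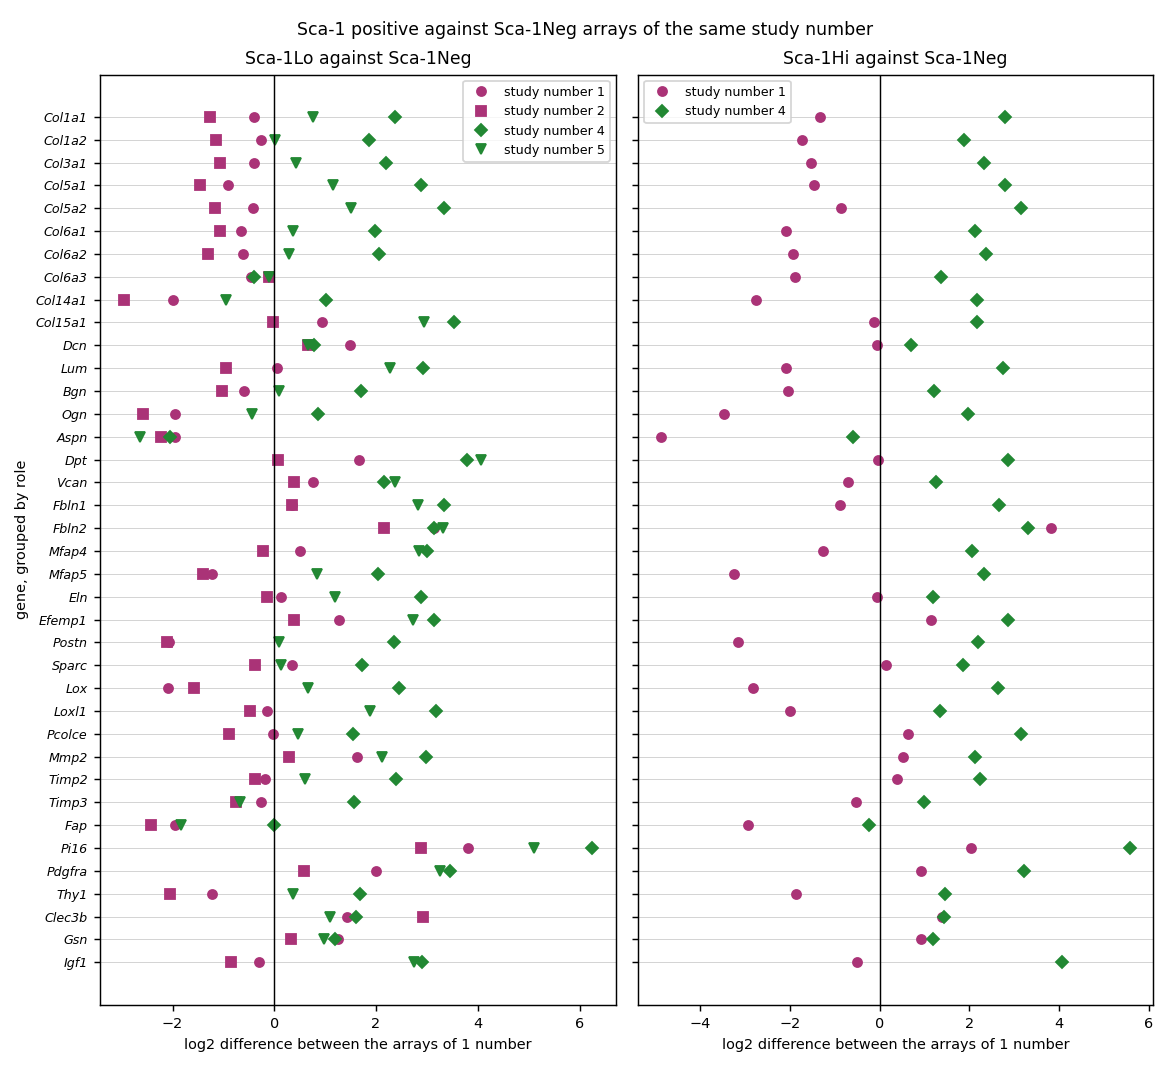
The log2 difference of Sca-1Lo (left) and Sca-1Hi (right) from the Sca-1Neg array of the same study number, for the 38 genes grouped by role, with 1 point per number. Numbers 1 and 2 lie mostly left of or near 0 and numbers 4 and 5 mostly right of it, while Fbln2, Pi16 and Clec3b lie right of 0 and Aspn left of 0 at every number.

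Cell type markers moved along with the sort as well. Of 13 endothelial genes, 12 were called higher in Sca-1Hi and 11 in Sca-1Lo than in Sca-1Neg, and of 7 basal epithelial genes 7 and 4. Over all genes the shares called higher were 6.12% and 1.69%. Of 14 smooth muscle and pericyte genes, 9 were called lower in Sca-1Hi and 1 in Sca-1Lo, and of 15 leukocyte genes 12 and 3. Over all genes the shares called lower were 5.19% and 0.829%. By the mean of log2 signals, 9 genes of the matrix list were highest in Sca-1Neg, the fraction of highest smooth muscle sums, 46125 to 143204. Aspn, Ogn and Fap were among them. In Sca-1Hi 6 were highest, Fbln2 and Efemp1 among them, and in Sca-1Lo 19, Pi16 among them. These are the fractions of highest endothelial sums. The other 4 were highest in UGE. In the fit to all arrays without a block, Ogn, Fap and Efemp1 were not called between adult populations. The part of the cell types in these differences was not tested. Ly6a, which encodes Sca-1, was at 9358 to 10878 in Sca-1Hi, 3129.5 to 8505 in Sca-1Lo, 342 to 856 in Sca-1Neg and 150.2 to 262 in UGE, in the order of the labels.

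The promoters of 4 genes are shown because these genes had fitted differences of UGE from an adult population among the widest of the 38, in part from UGE signals under 20, and split by the fraction in which they were highest, Dpt and Pi16 in Sca-1Lo and Aspn and Ogn in Sca-1Neg. The 150 bases before the annotated start are given from RefSeq on build GRCm38.p6, 5′ to 3′ on the plus strand, with the letters CCAAT in capitals, at chr1:164796513-164796662 for Dpt, chr17:29318732-29318881 for Pi16, chr13:49544293-49544442 for Aspn and chr13:49607865-49608014 for Ogn.
Dpt: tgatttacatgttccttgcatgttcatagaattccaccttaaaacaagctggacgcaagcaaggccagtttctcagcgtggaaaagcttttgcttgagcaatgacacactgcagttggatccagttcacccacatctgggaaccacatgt
Pi16: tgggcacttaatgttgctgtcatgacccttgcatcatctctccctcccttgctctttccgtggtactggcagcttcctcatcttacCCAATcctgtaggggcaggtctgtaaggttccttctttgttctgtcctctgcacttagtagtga
Aspn: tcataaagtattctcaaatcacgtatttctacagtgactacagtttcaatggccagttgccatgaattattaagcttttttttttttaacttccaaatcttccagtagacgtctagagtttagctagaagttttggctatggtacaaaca
Ogn: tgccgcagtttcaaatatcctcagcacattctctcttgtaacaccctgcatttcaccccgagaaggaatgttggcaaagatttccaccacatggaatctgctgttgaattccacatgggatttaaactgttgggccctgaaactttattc

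Short motifs of core promoters were looked for on both strands of these windows, namely CCAAT of the CCAAT box, TATAAA of the TATA box and GGGCGG of the GC box, none of which contains another. Pi16 held CCAAT at -64 from the annotated start and the other 3 held none of the 3 motifs. Over the 32851 promoters in the table, 24.5% held the first motif, 7.57% the second and 28.6% the last, and 25 genes of the list had a promoter there, of which 5, 2 and 11 did. A gene was counted if any of its promoters held the motif, while the shares are of single promoters, so the 2 are not alike. A match is a description of the letters only. Aspn and Ogn lie on the same chromosome, and 3 pairs of the list are direct neighbours, namely Col3a1 with Col5a2, Col6a1 with Col6a2, and Dcn with Lum.

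Further genes of the matrix were read from lists. Of 16 genes for enzymes and chaperones that make collagen, 3 were higher (P4ha1, P4ha3 and Plod2) and 2 lower (Plod1 and Loxl4) in UGE than in Sca-1Neg. These counts lay near the shares over all genes, 16.3% and 12.9%. The calls of this list all lay in comparisons with UGE, in which more of all genes were called than between adult populations. P4ha3, a subunit of the prolyl hydroxylase that stabilises the collagen helix, was at 989 to 1892 in UGE and under 20 on all 11 adult arrays, at least 65.9-fold higher in UGE than in each adult population (adjusted p = 2.8e-08 against Sca-1Neg, limma). Of 20 other interstitial matrix genes, 4 were higher and 3 lower in UGE than in Sca-1Neg, 3 and 5 against Sca-1Hi, and 3 and 8 against Sca-1Lo. Over all genes the shares were 16.3% and 12.9%, 15.8% and 12%, and 13.4% and 12.2%, so that the counts against Sca-1Neg lay near them. Prelp, a leucine-rich proteoglycan gene, had a mean signal under 20 in UGE and was lower there by at least 37.9-fold, 30.8-fold and 49.4-fold. Col11a1, a fibrillar collagen gene of cartilage and embryo, was higher in UGE than in Sca-1Neg and Sca-1Lo by log2 differences of 3.40 and 3.81 and than in Sca-1Hi by at least 9.64-fold. Here too all calls lay in comparisons with UGE.

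Of 17 basement membrane genes, 3 and 5 had an unadjusted p under 0.05 (limma) between UGE and Sca-1Hi or Sca-1Lo. Of the 41031 probe sets tested, 15649 and 14590 had such a p. The limma calls of the 17 genes all lay in comparisons with Sca-1Neg. In UGE 2 were higher and 1 lower than in Sca-1Neg, where 16.3% and 12.9% of all genes were, and Lama3 and Lamb3, chains of the laminin under basal epithelium, were the 2 called higher in both Sca-1Hi and Sca-1Lo than in Sca-1Neg. Of 11 other matrix proteases and inhibitors, Timp4 and Mmp7 were lower in UGE than in Sca-1Neg, by -4.50 and -4.29, and Mmp11, a stromelysin, was higher by 3.53. Adamts5, an aggrecan-cleaving protease gene, was lower in Sca-1Hi by -3.30 (adjusted p = 0.00472, limma) and in Sca-1Lo by -2.67 (adjusted p = 0.0314) than in Sca-1Neg. Of 7 collagen receptors, Itga1 was lower in UGE and in Sca-1Hi than in Sca-1Neg, by -3.41 and -2.10. Of 14 regulators and receptors of mesenchyme, 4 were lower in UGE than in Sca-1Neg, where 12.9% of all genes were. Among them were S100a4, by -5.12, and Pdgfrb, a receptor of pericytes and fibroblasts, by -3.19. In Sca-1Hi, Pdgfrb, Tbx18 and Osr2 were lower and Snai2 higher than in Sca-1Neg, where 5.19% and 6.12% of all genes were. Of 8 genes of embryonic mesenchyme, Hoxd13 alone was higher in UGE than in Sca-1Neg and Wnt5a alone higher than in Sca-1Hi, and their sum was 3411 to 4124 in UGE and 1053 to 7303 in Sca-1Lo.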

How the data were processed

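RNA from 14 samples was labelled in 2 cycles and hybridized to mouse whole-genome oligonucleotide arrays. The values deposited by the authors are intensities on a linear scale, computed from the probes of each set by the PLIER algorithm and called signals here, 1 per probe set and array, and the submitters' processing notes also name MAS5, whose detection calls were not used here. The methods call these levels normalized and name PLIER as a multi-array estimator, while a separate step between arrays is not given in the sources used here. The median signal of an array lay between 64.2 and 80.8. Signals were turned into log2 values with no constant added.

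Of 45101 probe sets, 64 were array controls, 34946 had 1 gene in the platform annotation, 932 several and 9159 none, and 1 (Ly6a) was named through a supplementary table. Those whose signal exceeded 20 somewhere in the 14 arrays, 41031 in number, were fitted with limma 3.58.1 (R 4.3.3) in 1 model of 4 population means, with Benjamini-Hochberg adjustment over all of them. A gene, read from its probe set of highest mean log2 signal, was called if its adjusted p was under 0.05 and it differed by more than 1.75-fold, the limits of the study's methods. Folds of genes with arrays under 20 were computed with signals set to at least 20, and are written as a bound (at least) where the mean signal of a population lay under 20 or none of its arrays exceeded it. Log2 differences, and the counts over the fold limit by study number, took signals as measured. Array by array values are given for up to 3 called genes of each role with the largest differences, or the brightest gene of a role without a call, and for Vcan, Efemp1 and Clec3b, which were chosen after their values were seen. The members, the other lists and the tests were chosen with earlier results of these data known. The number of arrays, and not a read depth, limits the precision.

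Study numbers were joined to the arrays through 1050 probe sets of a supplementary table, with a largest difference of 1.2e-05. Deviations from the population means correlated by 0.18, 0.41, 0.12 and 0.56 for Sca-1Lo and Sca-1Neg arrays of the same number. The values were 0.36 and -0.06 for Sca-1Hi and Sca-1Neg and 0.51 and 0.28 for Sca-1Hi and Sca-1Lo. The numbers were taken to pair Sca-1Lo with Sca-1Neg, though arrays of these populations with unlike numbers were not correlated for comparison. This pairing was weak at numbers 1 and 4, and the correlations of Sca-1Hi with Sca-1Lo lay in the same range. Alternatives changed the filter, the constant, the normalization, the arrays, the block, the probe set rule and the test. The scripts were tested on simulated data, and figures were drawn with matplotlib 3.10.9.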

Additional observations from a re-analysis of the deposited data

Results flagged for a closer look

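Sca-1Neg replicate 4 stood apart from the other 3 arrays of its population for 8 of the 38 genes, by a gap of 0.843 to 0.945 of the whole range on the log2 scale. Its signal was 12606.0 for Col1a2 (2967.7 to 3312.8 on the other 3), 945.1 for Lum (282.2 to 334.2) and 14217.5 for Bgn (2567.3 to 3152.9). These are a collagen chain and 2 proteoglycans of the fibril surface. For Fbln1 it was 292.9 (74.1 to 91.9), for Sparc 12780.4 (2866.3 to 3113.4) and for Pcolce 3123.6 (492.8 to 590.8). The inhibitor genes Timp2 and Timp3 were at 5463.9 (1357.7 to 1568.7) and 6820.4 (1397.9 to 1780.4). By chance about 1 in 20 groups of 4 arrays is picked out in this way, and genes of 1 list are not independent of each other. This array carries study number 5, which no Sca-1Hi array has.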

How the results depend on the processing

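The 39 calls, in 16 genes, kept their sign in all 696 refits of the probe set or gene mean under the alternatives run. This was in part fixed in advance. A change of filter, the 2 populations fitted alone and the t-test leave the difference as it was, so its sign could not change. The other refits used the same arrays, and the calls had been picked for large differences. Besides, 1 other probe set of Vcan was called the opposite way in UGE against Sca-1Hi. No gene of the 38 was called between Sca-1Hi and Sca-1Lo under any of the alternatives. Of UGE against Sca-1Neg, with 11 calls, 17 were called with adult arrays of numbers 1 and 2 alone, 5 by the methods' t-test and 5 to 12 with 1 array left out. Of UGE against Sca-1Hi, with 13 calls, the t-test called 2 and leaving out 1 array gave 5 to 13. Of UGE against Sca-1Lo, with 12 calls, 25 were called with numbers 3 to 5 alone, 5 by the t-test and 7 to 14 with 1 array left out. For Sca-1Hi against Sca-1Neg, the 2 calls (1 higher, 1 lower) became 4 after quantile normalization (2 and 2), 6 after centring on the 75th percentile (4 and 2), 0 by the t-test and 0 to 3 with 1 array left out. For Sca-1Lo against Sca-1Neg, the single call became 0 with no filter, with 16 added, with the 2 populations fitted alone and by the t-test. It became 2 with a filter on 3 arrays, after quantile normalization, after centring on the 75th percentile and with numbers 1 and 2 alone, 4 with numbers 3 to 5 alone and 0 to 3 with 1 array left out. The t-test gave an unadjusted p under 0.05, with a difference over the fold limit, for 13 genes of UGE against Sca-1Neg, 5 of Sca-1Hi and 4 of Sca-1Lo against Sca-1Neg. The shares of all genes that did so were not computed. The causes were not tested. With a gene read as the mean of its probe sets, the call of Sca-1Lo was Fbln2 in place of Pi16.

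With the study number as a block, 4 genes were called in Sca-1Lo and 2 in Sca-1Hi (Fbln2 and Pi16) against Sca-1Neg, and Aspn was lost in Sca-1Hi. With numbers 1 and 2 against 3 to 5 as the block, 6 and 7 were called. The replicate number of the labels gave as a block 2 calls in Sca-1Lo (Fbln2, adjusted p = 0.00978, and Pi16, 0.00763, limma) and 6 in Sca-1Hi. For UGE it gave 12, 17 and 12 against Sca-1Neg, Sca-1Hi and Sca-1Lo. By this number, deviations of UGE and Sca-1Hi arrays from their population means correlated by 0.39, 0.36 and 0.02. Those of either with Sca-1Lo or Sca-1Neg had both signs, from -0.45 to 0.51.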
